A study of Mus musculus with 9 samples.

Results

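The Notch genes described here are the receptors Notch1, Notch2, Notch3 and Notch4, the ligands Jag1, Jag2 and Dll1, and the target genes Hes1, Hey1 and Heyl. They were picked by name, not by their values, and make up 10 of the 50813 genes in the count table. All libraries came from LLC, a line derived from a Lewis lung carcinoma of the mouse that stably carries luciferase, grown in vitro in DMEM with fetal bovine serum and antibiotics. RNA was sequenced from 3 lines with 3 libraries each, namely WT, called clonal in the series' design text, and the CD47 KO lines E3 and E5. The KO lines were made by electroporating a Cas9 ribonucleoprotein aimed at Cd47 and were then clonally expanded, so that each is 1 clone, and the loss of CD47 cannot be told apart from other properties of that clone. The study's methods describe the replicates as independent biological replicates, and the p-values measure the spread between libraries within a line, not between clones of a genotype. Both clones were compared with the same WT libraries.

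Notch receptors are cell surface proteins that are cut when a ligand on a neighbouring cell pulls on them. The freed intracellular part enters the nucleus, joins the DNA-binding protein RBPJ and a Mastermind coactivator, and switches on target genes, among which Hes and Hey genes encode transcriptional repressors. In lung cancers, Notch signaling has been linked to growth, to cell state and to communication with the surrounding tissue.

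Of the 10 genes, 8 passed the filter on low counts and were tested among 14593 genes, with edgeR's quasi-likelihood test and Benjamini-Hochberg adjustment over all of them (referred to below as the edgeR FDR). A DEG was a gene with an FDR below 0.05 whose log2 fold change exceeded 1 in either direction. In clone E3, Notch1 and Notch3 were higher and Jag1 and Dll1 lower than in WT cells. In clone E5, the ligands Jag1, Jag2 and Dll1 were higher than in WT cells, and they were DEGs, each higher in E5, between the clones. The target gene Hes1 passed in no comparison, and Hey1 and Heyl were at or near 0 counts everywhere. The plot of changes by gene shows these results with their intervals. Since RNA was taken from whole cultures, fewer cells with a transcript and less of it per cell cannot be told apart.

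**Figure D1:**
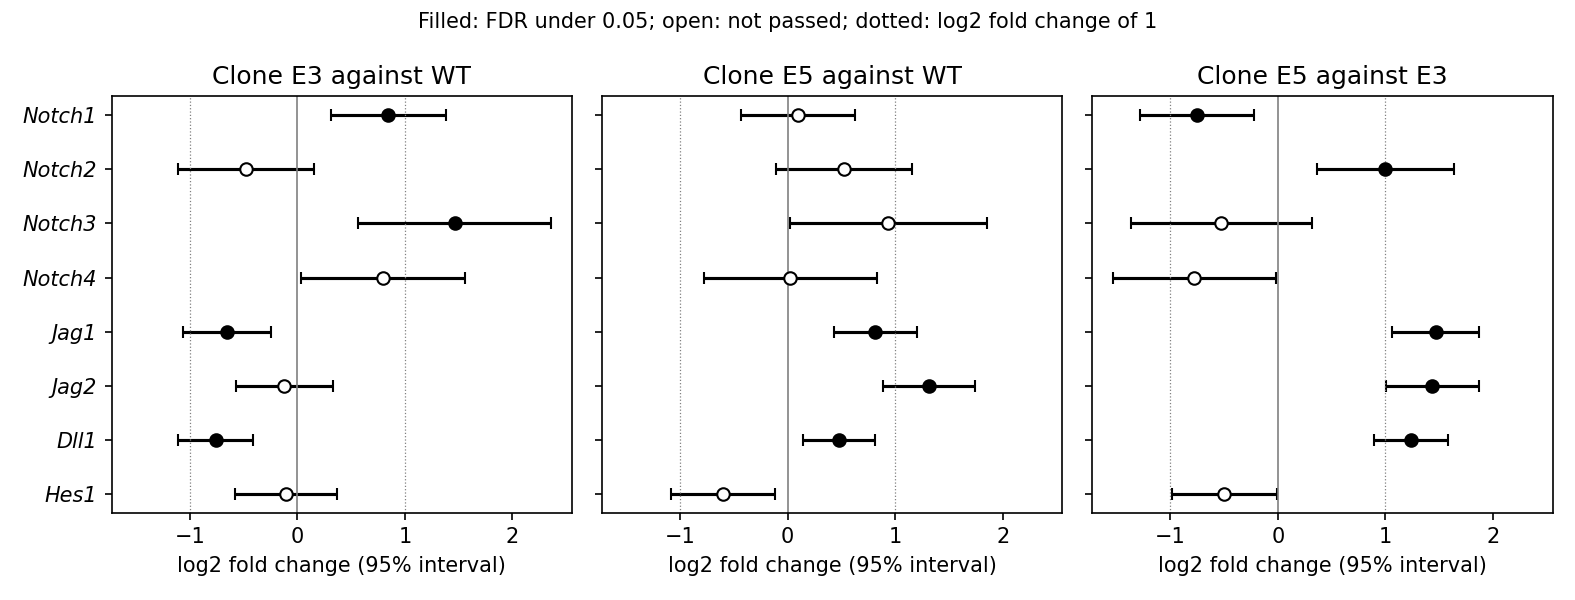
Log2 fold changes (x axis, with 95% intervals) of the 8 tested Notch genes (y axis) for each KO clone relative to WT and for E5 relative to E3, with filled points for an edgeR FDR under 0.05. The ligands lie left of 0 or on it in the left panel and right of 0 in the others, with log2 fold changes of 1.47, 1.44 and 1.24 for Jag1, Jag2 and Dll1 between the clones.

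Read against all genes, 2 of the 8 tested Notch genes were higher and 2 lower in clone E3 at an FDR below 0.05, where 30.5% of all tested genes passed (15.7% higher, 14.7% lower). Of the 8, 1 was a DEG in E3, against 9.82% of all genes (5.43% higher, 4.39% lower). In E5 against WT, 3 of 8 passed, all higher, against 20.6% (8.96% higher, 11.7% lower), and 1 was a DEG, against 8.21% (2.69% higher, 5.52% lower). Between the clones 4 of 8 were higher and 1 lower in E5, against 31.9% (14.7% higher, 17.2% lower). All 3 DEGs there were higher in E5, against 11.0% (3.49% higher, 7.52% lower). Libraries did not overlap for 4, 6 and 5 of the 8 genes in these comparisons, against 45.4%, 55.4% and 44.6% of all genes. The median log2 fold change of the 8 genes was -0.11 in E3, 0.50 in E5 and 0.25 between the clones, beside 0.0102, -0.0023 and -0.011 over all tested genes. By role, the ligands had medians of -0.65, 0.82 and 1.44 and the receptors 0.82, 0.31 and -0.64. Without replicate 3 of clone E3, which is described next, 4 of the 8 Notch genes passed in E3, 6 in E5 and 6 between the clones, and in the same fit the shares of all tested genes were 43.2%, 42.0% and 44.1%.

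Total counts were 44257404 to 55095219 per library. Cd47 itself, at a mean of 182 CPM (read counts scaled to library size by TMM) in WT cells, fell by 2.03 on the log2 scale in clone E3 and by 3.39 in clone E5, with every KO library under every WT library (edgeR FDR 4.9e-06 and 1.07e-07). Replicate 3 of clone E3 stood apart from the other E3 libraries in a way that followed transcript length. Its median log2 ratio to them was 0.515 for the 1655 genes with transcripts under 1.5 kb and -0.863 for the 1186 genes over 7 kb, whereas the libraries of WT and of clone E5 stayed between -0.0681 and 0.0797 in every length class. Notch receptor transcripts are long, and each result on them is therefore also given without this library. The 6 mesenchymal markers summed to 8660 to 9080 CPM in WT, 9980 to 11200 in E3 and 10100 to 11700 in E5. Only Thy1 of them was at 0. Their log2 fold changes in E3 and E5 were 0.40 and 0.66 for Vim, 0.50 and 0.21 for Col3a1 and -0.81 and -0.66 for Fn1. Col1a1 had 0.99 and -1.45, and Cdh2 -0.032 and 0.25. Of these, Vim and Col1a1 passed in both clones and Col3a1 in E3 (edgeR FDR at most 0.0301). Of 7 epithelial markers, Epcam, Nkx2-1 and Sftpc were at 0 in every library. The remaining epithelial signal, which Krt8 and Krt18 carried, was 451 to 459 CPM in WT, 127 to 199 in E3 and 896 to 958 in E5. The 5 smooth muscle and pericyte markers summed to 1.52 to 2.19 CPM in WT, 5.5 to 7.08 in E3 and 0.646 to 0.962 in E5, with Rgs5 at 0. The 6 leukocyte markers summed to 2.35 to 3.45 CPM over all libraries, with Cd3e at 0, and the 5 endothelial markers to at most 0.253 CPM, with Tie1 at 0. Cd68 made up most of the leukocyte sum, at means of 2.82 CPM in WT, 2.44 in E3 and 3.04 in E5. The part of these marker differences in the Notch results was not tested.

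**Figure D2:**
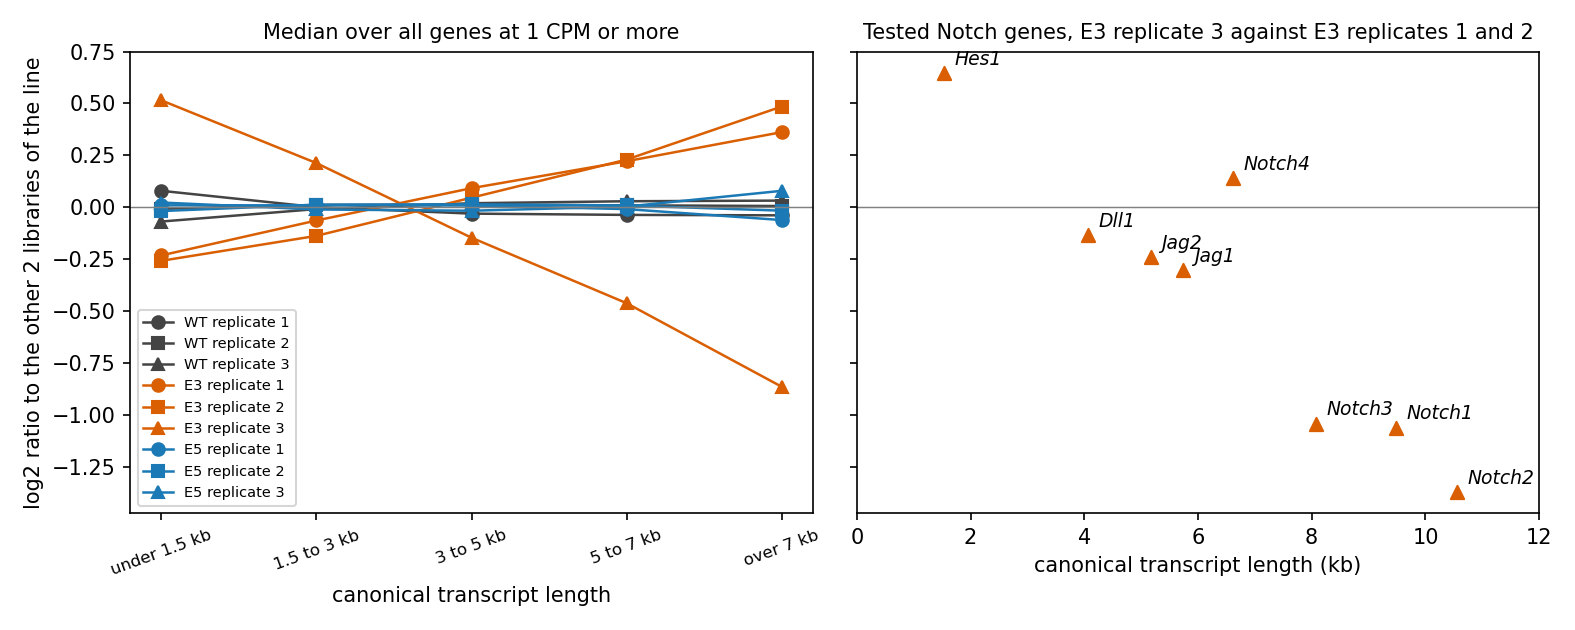
Left, median log2 ratio of each library to the other 2 libraries of its line (y axis) over genes in 5 classes of transcript length (x axis). Right, the same ratio for the 8 tested Notch genes in replicate 3 of clone E3, against transcript length in kb: Notch1, Notch2 and Notch3 lie at -1.06, -1.37 and -1.04, and Hes1, the shortest, at 0.647.

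Levels were set side by side between genes as RPKM, reads per kilobase of merged exons scaled to library size. In WT cells Notch2 was the highest of the 10 genes, at 13.1 ± 0.483 RPKM (SD, n = 3). Notch1 followed at 1.45 ± 0.134 and Hes1 at 1.31 ± 0.153, and their libraries overlapped. Below them came Dll1 at 0.772 ± 0.0988 RPKM, Jag1 at 0.383 ± 0.052 and Jag2 at 0.225 ± 0.0551, whose libraries did not overlap with their neighbours in this order. Notch3, at 0.0702 ± 0.0246 RPKM, and Notch4, at 0.0381 ± 0.00633, overlapped with each other. The order kept Notch2 on top in both clones, at 9.44 ± 4.38 RPKM in E3 and 18.9 ± 0.757 in E5. In clone E3, Jag1, Jag2 and Notch3 lay close together, at 0.243, 0.207 and 0.194 RPKM, and neighbours among them overlapped. In clone E5, Notch1 at 1.55 RPKM was followed by Dll1 at 1.08, Hes1 at 0.862, Jag1 at 0.674, Jag2 at 0.561, Notch3 at 0.135 and Notch4 at 0.0383, and among these neighbours only Hes1 and Jag1 overlapped. The place of Hes1 and of Jag2 depended on the length used: per kilobase of the canonical transcript, Hes1 came before Notch1 in WT cells, at 2.89 against 2.17 RPKM, and before Dll1 in clone E5, at 1.90 against 1.31, and Jag2 came before Jag1 in E5, at 0.770 against 0.700, and in E3, at 0.284 against 0.253.

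Notch2, encoded on the plus strand at chr3:97920854-98057677 (ENSMUSG00000027878.12, GRCm39, as the files give it), is a widely expressed receptor. It had 142, 152 and 151 CPM in the WT libraries, 121, 147 and 51.3 in clone E3, and 203, 218 and 217 in clone E5. All E5 libraries lay above all others, and E3 replicate 3 lay far below the rest, at 38.3% of the mean of the other E3 libraries. The log2 fold change was 0.52 in E5 (95% interval -0.11 to 1.16, edgeR FDR 0.232) and -0.48 in E3 (interval -1.11 to 0.16, FDR 0.238), neither of which passed. Between the clones Notch2 was higher in E5 by 1.00 ± 0.29 on the log2 scale (SE, edgeR FDR 0.023), just under the fold that a DEG needs. Without E3 replicate 3, the value in E3 was -0.15 (edgeR FDR 0.18). The value for E5 against WT then was 0.53 and passed (edgeR FDR 0.000152), and that between the clones was 0.68 (FDR 5.69e-05). Over the 9 fits that each left out 1 library, the FDR ranged from 0.000152 to 0.414 for E5 against WT and from 5.69e-05 to 0.0656 between the clones, where it was lost without any 1 of the E5 libraries, at 0.0524, 0.0656 and 0.063.

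Notch1, the prototype of the family (ENSMUSG00000026923.16, chr2:26347915-26406675, minus strand), had 22.8, 19.7 and 19.3 CPM in WT cells. It had 42.1, 47.8 and 21.2 CPM in clone E3 and 23.4, 20.8 and 21.9 in clone E5. Replicates 1 and 2 of E3 stood above all other libraries, while replicate 3 was within the range of WT. Notch1 was higher in E3 than in WT cells by 0.85 ± 0.24 on the log2 scale (SE, edgeR FDR 0.0224), and it was lower in E5 than in E3, with a log2 fold change of -0.75 ± 0.24 (FDR 0.0356). E5 did not differ detectably from WT, at 0.10 (interval -0.43 to 0.63, edgeR FDR 0.819). Without E3 replicate 3 the differences were larger, at 1.12 (edgeR FDR 3.7e-06, a DEG) and -1.02 (FDR 5.38e-06), and E5 against WT was 0.10 (FDR 0.375). The E3 call was lost without WT replicate 2 or 3 or E3 replicate 1 or 2, at edgeR FDRs of 0.08, 0.0824, 0.0723 and 0.0707, and over all 9 such fits the FDR was 3.7e-06 to 0.0824. The call between the clones held only in the fit without E3 replicate 3, and in the other 8 the edgeR FDR was 0.0523 to 0.112. Notch1 shares 14.0% of its exonic bases with 0610009E02Rik on the opposite strand, which had 18 to 62 counts per library and log2 fold changes of 0.78 in E3, -0.28 in E5 and -1.06 between the clones (edgeR FDR 0.101, 0.635 and 0.0353).

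Notch3, best known from vascular smooth muscle and pericytes (ENSMUSG00000038146.9, chr17:32339794-32385826, minus strand), was scarce. It had 0.781, 0.379 and 0.739 CPM in WT cells, 2.52, 1.9 and 0.814 in clone E3 and 0.97, 1.28 and 1.39 in clone E5. Every library of either clone was above every WT library, although the lowest E3 library, replicate 3, exceeded the highest WT library only narrowly. Notch3 was a DEG in clone E3, at a log2 fold change of 1.46 ± 0.40 (SE, edgeR FDR 0.0204), and had 0.94 in clone E5 (interval 0.021 to 1.85, FDR 0.14). Without E3 replicate 3 these were 1.80 (edgeR FDR 0.00034) and 0.94 (FDR 0.0165), and the clones then differed by -0.85 (FDR 0.0208) in place of -0.53 (FDR 0.32). The E3 call was lost without WT replicate 2 or E3 replicate 1, at edgeR FDRs of 0.0826 and 0.0784, within a range of 0.00034 to 0.0826. Of the 5 smooth muscle and pericyte markers, Pdgfrb was higher in E3 by 2.07 and had a log2 fold change of -2.07 in E5 (edgeR FDR 6.91e-05 and 0.000274). Des had 1.16 in E3 and -0.18 in E5 (edgeR FDR 0.0748 and 0.841), Cspg4 was lower in every E3 library than in any WT library, at means of 0.0351 against 0.144 CPM, Myh11 overlapped at 0.0358 against 0.102 CPM, and Rgs5 was at 0. Their part in the Notch3 values was not tested.

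Notch4, a receptor of endothelium (ENSMUSG00000015468.15, chr17:34783242-34807477, plus strand), was the scarcest of the 4, with 9 to 31 counts per library. It had 0.401, 0.294 and 0.317 CPM in WT cells, 0.46, 0.655 and 0.66 in clone E3 and 0.194, 0.325 and 0.499 in clone E5. The E3 libraries lay above all WT libraries but overlapped with E5, and E5 spanned the whole WT range. No comparison passed: the log2 fold change was 0.80 in E3 (interval 0.039 to 1.56, edgeR FDR 0.104), 0.025 in E5 (interval -0.78 to 0.83, FDR 0.971) and -0.77 between the clones (FDR 0.109). Without E5 replicate 3 the clones differed by -1.17 (edgeR FDR 0.0435, in a range of 0.0435 to 0.295 over the 9 fits). Unlike the longer receptors, Notch4 was not low in E3 replicate 3, which held 118% of the mean of the other E3 libraries, and without it the values were 0.71 in E3, 0.033 in E5 and -0.68 between the clones (edgeR FDR 0.16, 0.953 and 0.176).

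**Figure D3:**
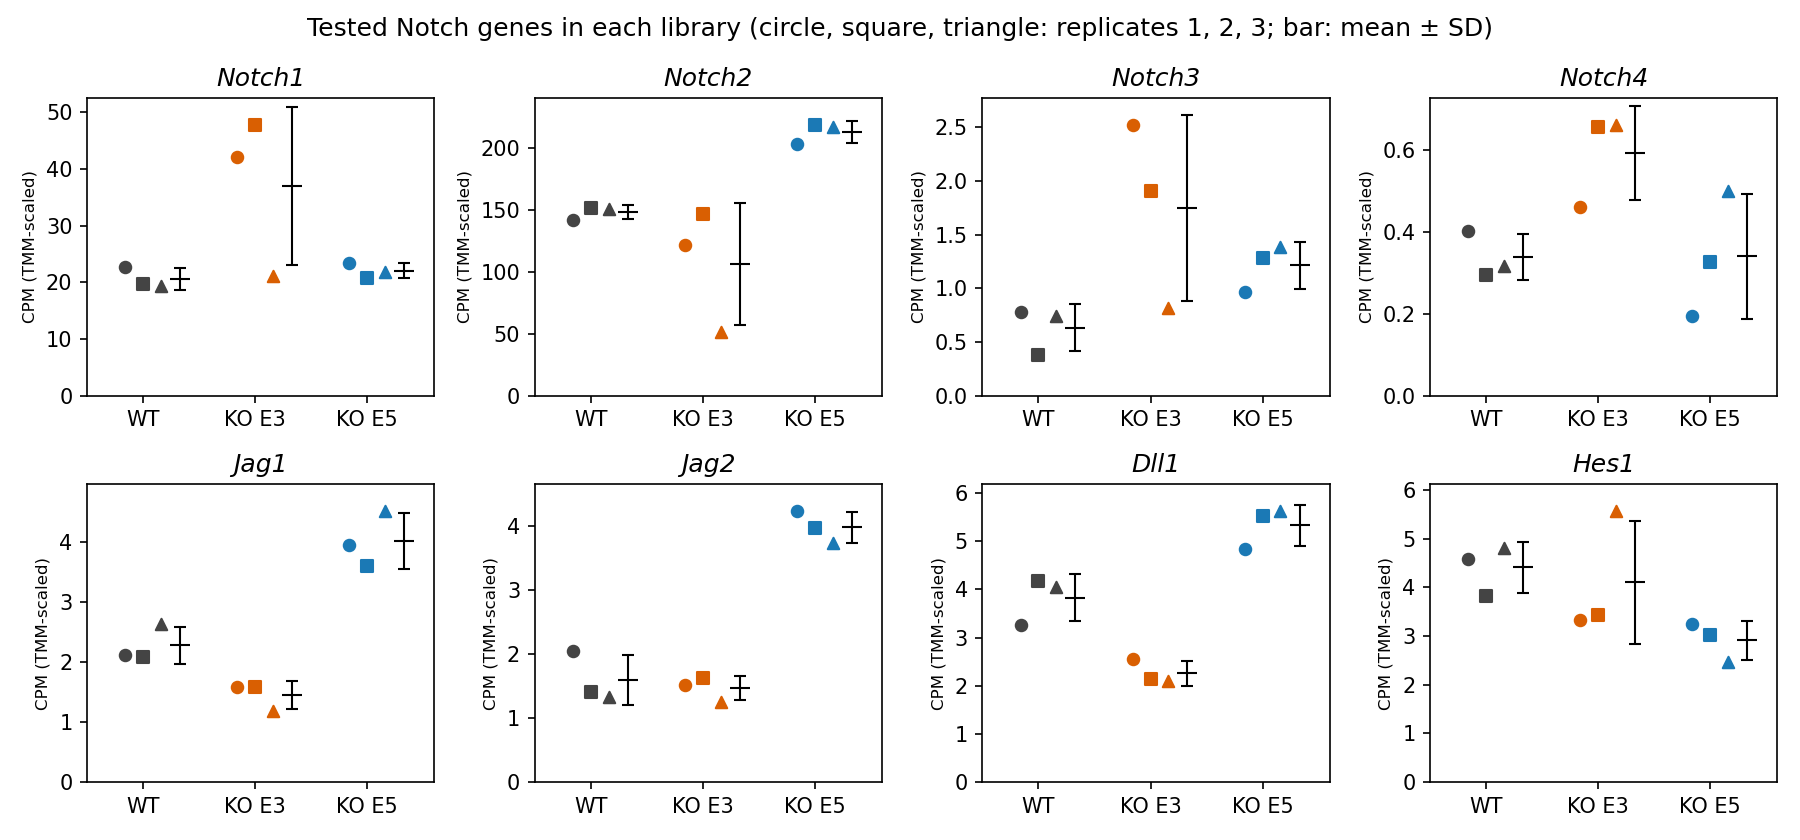
Normalized read count (CPM, y axis, from 0) of the 8 tested Notch genes in each library by line (x axis), with black bars for mean ± SD (n = 3). The 3 libraries of clone E5 stand above all others for Jag1, Jag2, Dll1 and Notch2, and replicate 3 of clone E3 (triangle) lies below replicates 1 and 2 for Notch1, Notch2 and Notch3.

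The ligands are membrane proteins that activate Notch on neighbouring cells and can block it within their own cell. Jag1 (ENSMUSG00000027276.8, chr2:136923376-136958564, minus strand) had 2.12, 2.08 and 2.64 CPM in WT cells, 1.58, 1.58 and 1.19 in clone E3 and 3.94, 3.6 and 4.51 in clone E5. The lines did not overlap, with E3 lowest and E5 highest. Jag1 fell by 0.65 ± 0.18 on the log2 scale in E3 (SE, edgeR FDR 0.0227) and rose by 0.82 ± 0.17 in E5 (FDR 0.00803), and E5 exceeded E3 by 1.47 ± 0.18 (FDR 2e-04). Leaving out each library in turn kept the calls for E5 against WT (edgeR FDR 0.000923 to 0.0479) and between the clones (FDR 8.18e-05 to 0.0014). The call in E3 was lost without WT replicate 3, at an edgeR FDR of 0.097 in a range of 0.0272 to 0.097, and was -0.53 (FDR 0.0339) without E3 replicate 3.

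Jag2, a close relative of Jag1 (ENSMUSG00000002799.7, chr12:112871439-112893396, minus strand), had 2.04, 1.41 and 1.33 CPM in WT cells, 1.52, 1.63 and 1.25 in clone E3 and 4.22, 3.97 and 3.74 in clone E5. E5 lay above every other library, and WT and E3 overlapped. Jag2 was the only one of the 8 tested genes that was a DEG in E5 against WT, at 2.49-fold (log2 fold change 1.31 ± 0.19, SE, edgeR FDR 0.000883), and it was 2.71-fold higher in E5 than in E3 (FDR 0.000369). In E3 its log2 fold change was -0.12 (interval -0.57 to 0.33, edgeR FDR 0.694). The E5 call held in each of the 9 fits without 1 library, at edgeR FDRs of 0.000103 to 0.00746, as did that between the clones, at 0.000217 to 0.00238.

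Dll1, the Delta-like ligand of the group (ENSMUSG00000014773.14, chr17:15587616-15597134, minus strand), had 3.27, 4.16 and 4.05 CPM in WT cells, 2.56, 2.13 and 2.09 in clone E3 and 4.85, 5.53 and 5.62 in clone E5. As with Jag1, the lines did not overlap and E3 was lowest. Dll1 fell by 0.76 ± 0.16 on the log2 scale in E3 (SE, edgeR FDR 0.00472), and E5 exceeded E3 by 1.24 ± 0.16 (FDR 0.00022), calls that each left-out library preserved (FDR 0.00424 to 0.0267 and 0.000104 to 0.00171). The rise in E5 against WT was 0.48 ± 0.15 (edgeR FDR 0.0461), close to the threshold. It was lost without any 1 of the WT or E5 libraries, at edgeR FDRs of 0.0715 to 0.177, and its lowest value over the 9 fits was 0.0127. Dll1 shares 27.6% of its exonic bases with Fam120b on the opposite strand, whose log2 fold changes were -0.013 and 0.096 (edgeR FDR 0.949 and 0.617). The library kit keeps the strand, but the strand setting of the counting is not given in the sources used here.

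The targets start with Hes1, a repressor gene that Notch switches on in many tissues. Hes1 (ENSMUSG00000022528.9, chr16:29883202-29886614, plus strand, the chromosome that also holds Cd47) had 4.59, 3.83 and 4.81 CPM in WT cells, 3.32, 3.42 and 5.56 in clone E3 and 3.25, 3.01 and 2.46 in clone E5. E5 lay below every other library, while E3 straddled WT, with replicate 3 highest, at 165% of the mean of replicates 1 and 2, and the others below every WT library. None of the comparisons passed: Hes1 had a log2 fold change of -0.60 ± 0.22 in E5 (SE, interval -1.08 to -0.12, edgeR FDR 0.077), -0.11 in E3 (interval -0.58 to 0.37, FDR 0.748) and -0.50 between the clones (interval -0.98 to -0.012, FDR 0.109). Without E3 replicate 3 the E3 value was -0.39 (edgeR FDR 0.0732). The E5 value passed without E3 replicate 3, at -0.60 (edgeR FDR 0.00621), and missed in the other 8 fits without 1 library, where the FDR reached 0.219. With DESeq2 its adjusted p was 0.0404. Hey1 (ENSMUSG00000040289.9, chr3:8728419-8732316, minus strand), another repressor gene and Notch target, had 0, 0 and 1 counts in WT, 1, 0 and 0 in E3 and 3, 0 and 1 in E5. Heyl (ENSMUSG00000032744.5, chr4:123127349-123143668, plus strand) had 0 counts in all 9 libraries. A count of 0 allows up to 3 counts, or 0.0555 to 0.066 CPM in these libraries, so differences in Hey1 and Heyl were not detectable at this depth.

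The promoters shown are examples chosen after values and letters were seen. Those of Hes1 and Hes7 hold the core letters of the RBPJ site, and those of Nrarp, Jag1 and Jag2 do not. Hes1 passed in no comparison. Among the DEGs not shown, Myc and Dner hold the letters. Notch3, Dll1, Dlk2, Psen2, Aph1b, Mib2, Neurl1b, Efnb2 and Hes6 do not. Whether the letters go with the changes was not tested. Each window covers the 250 bases before the start of the canonical transcript in GRCm39 (GENCODE annotation), read 5′ to 3′ on the strand of the gene, and capitals mark TGGGAA or its reverse complement TTCCCA, searched on both strands. Hes1 lies at chr16:29883877-29884126 on the plus strand, Hes7 at chr11:69010980-69011229 (plus), Nrarp at chr2:25070520-25070769 (plus), Jag1 at chr2:136958694-136958943 (minus) and Jag2 at chr12:112893438-112893687 (minus).
Hes1: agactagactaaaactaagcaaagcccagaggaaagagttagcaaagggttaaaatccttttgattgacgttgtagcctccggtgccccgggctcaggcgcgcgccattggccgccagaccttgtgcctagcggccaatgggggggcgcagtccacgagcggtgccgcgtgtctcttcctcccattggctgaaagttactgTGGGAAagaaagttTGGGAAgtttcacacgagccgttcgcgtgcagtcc
Hes7: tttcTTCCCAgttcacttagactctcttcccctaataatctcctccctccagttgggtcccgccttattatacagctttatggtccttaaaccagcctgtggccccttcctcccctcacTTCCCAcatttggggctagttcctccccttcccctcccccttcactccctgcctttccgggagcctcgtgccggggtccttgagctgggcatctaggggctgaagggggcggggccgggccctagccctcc
Nrarp: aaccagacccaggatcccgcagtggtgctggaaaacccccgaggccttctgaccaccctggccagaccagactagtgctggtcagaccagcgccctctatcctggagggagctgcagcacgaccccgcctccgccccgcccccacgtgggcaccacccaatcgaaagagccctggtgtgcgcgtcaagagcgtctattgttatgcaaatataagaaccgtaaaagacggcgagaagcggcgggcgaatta
Jag1: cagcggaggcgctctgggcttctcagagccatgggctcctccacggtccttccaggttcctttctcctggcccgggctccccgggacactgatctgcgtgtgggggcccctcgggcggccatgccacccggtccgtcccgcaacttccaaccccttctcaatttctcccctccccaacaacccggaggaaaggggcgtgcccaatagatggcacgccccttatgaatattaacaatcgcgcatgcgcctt
Jag2: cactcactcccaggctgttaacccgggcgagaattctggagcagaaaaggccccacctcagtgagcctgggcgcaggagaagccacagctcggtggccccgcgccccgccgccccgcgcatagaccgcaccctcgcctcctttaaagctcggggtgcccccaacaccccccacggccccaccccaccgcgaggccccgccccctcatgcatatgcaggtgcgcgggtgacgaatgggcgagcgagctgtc
The letters stand at -49 to -44 and -35 to -30 of Hes1, counted from the base before the start as -1, and at -246 to -241 and -131 to -126 of Hes7. They occurred in 4885 of 21446 protein-coding promoters (22.8%), in 2 of the 10 Notch genes (Hes1 and Hey1), in 0 of the 7 receptors and ligands and in 19 of the 60 other pathway genes. A match is a description of these letters and not evidence of binding.

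Another 60 genes of the pathway were grouped by role, and 49 were tested. In clone E3, 8 were higher and 10 lower (36.7% of the 49, against 30.5% of all genes), in clone E5 4 were higher and 5 lower (18.4%, against 20.6%), and between the clones 8 were higher and 8 lower in E5 (32.7%, against 31.9%). Their median log2 fold changes were -0.066, 0.053 and 0.068. These shares at an FDR below 0.05 are near those of all genes. DEGs in E3 numbered 9 of the 49 (5 higher, 4 lower), against 9.82% of all genes. In E5 there were 2 (1 higher, 1 lower), against 8.21%, and between the clones 6 (2 higher, 4 lower), against 11.0%. The plane of both clones' changes shows the DEGs among the 49 genes. Genes that passed without being DEGs, other than Rbpj, are named below after their values were seen. Among the 3 tested glycosyltransferases, which add sugars to the receptors, Poglut1 passed in E3, with a log2 fold change of -0.62 (edgeR FDR 0.000621), and Pofut1 in E5, with -0.34 (FDR 0.0359). That is 33.3% of only 3 genes in each clone, against 30.5% and 20.6% of all tested genes.

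**Figure D4:**
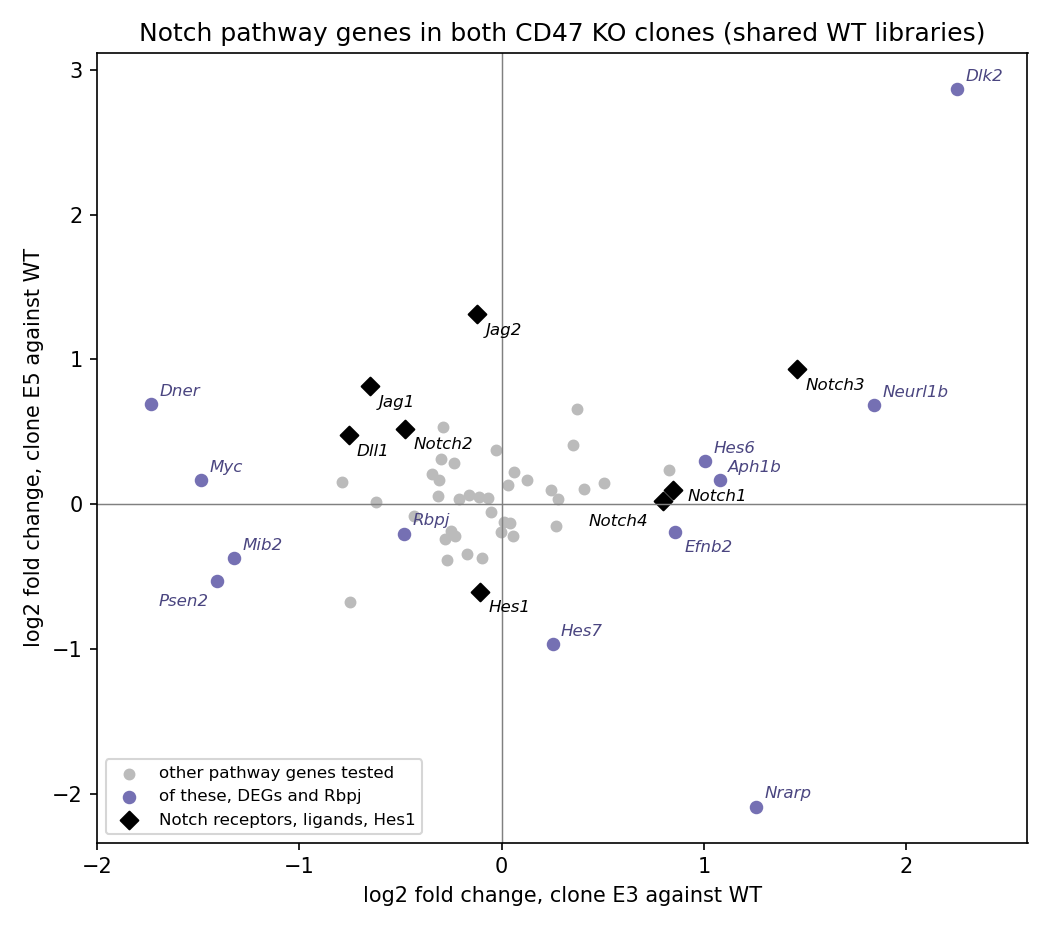
Log2 fold change against WT in clone E3 (x axis) and clone E5 (y axis) of the 8 tested Notch genes (diamonds) and of 49 other pathway genes (circles), where both axes share the WT libraries. Dlk2 lies at 2.25 and 2.87, Nrarp at 1.26 and -2.09, and Myc at -1.48 and 0.17.

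Among the other ligands, Dlk2, a noncanonical Delta-like protein, was a DEG in both clones. At 6, 4 and 6 counts in WT, it passed the filter on low counts only through the KO libraries. A gene this low in WT could be tested only if it was higher in a clone, so the direction of this call was set by the filter. Dlk2 shares 23.1% of its exonic bases with Gm65624 and 2.43% with Abcc10, both on the opposite strand. It had 0.12, 0.0841 and 0.127 CPM in WT cells, 0.32, 0.697 and 0.594 in E3 and 1.34, 0.802 and 0.351 in E5, all above WT. Its log2 fold change was 2.25 ± 0.59 in E3 (SE, edgeR FDR 0.0154) and 2.87 ± 0.56 in E5 (FDR 0.00492), from low counts in WT, and the E3 call was lost without WT replicate 2 (FDR 0.0608, in a range of 0.00548 to 0.0608). Dner, a Delta and Notch-like receptor protein best known from neurons, fell by 1.73 ± 0.56 in E3 (edgeR FDR 0.04) and was higher in E5 than in E3 by 2.42 ± 0.53 (FDR 0.00631). Dner had few counts, at 33, 20 and 9 in WT, 3, 8 and 7 in E3 and 35, 19 and 48 in E5. Its E3 call was lost in 5 of the 9 fits without 1 library, at edgeR FDRs up to 0.162. Dll3, Dll4 and Dlk1 did not pass the filter on counts.

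Of the 9 proteases that cut Notch, Psen2, Aph1b and Ncstn passed in E3 and Psen2 and Ncstn in E5. These shares of 33.3% and 22.2% are near the 30.5% and 20.6% of all tested genes. Ncstn, a gamma-secretase subunit, had -0.27 and -0.39 (edgeR FDR 0.0332 and 0.00861). Psen2, the catalytic part of some gamma-secretase complexes, had 7.01, 6.14 and 6.56 CPM in WT cells, 2.58, 2.13 and 2.73 in E3 and 4.35, 3.93 and 5.4 in E5, with no overlap between lines. It fell by 1.41 ± 0.16 on the log2 scale in E3 (edgeR FDR 0.000179) and by 0.53 ± 0.16 in E5 (FDR 0.0369), and the E5 call was lost in 5 of the 9 fits without 1 library, at edgeR FDRs up to 0.147. Aph1b, another gamma-secretase subunit, rose in E3, from 5.82 to 12.3 CPM on average, a log2 fold change of 1.08 ± 0.15 (edgeR FDR 0.000516), and had 0.17 in E5 (FDR 0.487).

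Among the 14 tested regulators of endocytosis and ubiquitination, Neurl1b, Numbl and Dtx2 rose and Mib2, Neurl1a and Fbxw7 fell in E3. In E5, Neurl1b, Dtx3l and Dtx4 rose. That is 42.9% of the 14 in E3 and 21.4% in E5, against 30.5% and 20.6% of all tested genes. Mib2, a ubiquitin ligase that acts on Notch ligands, had 110, 127 and 123 CPM in WT cells, 54.9, 38.1 and 50.9 in E3 and 64.4, 97.9 and 116 in E5. It fell by 1.32 ± 0.20 in E3 (edgeR FDR 0.000966), and E5 overlapped with WT, at -0.37 (FDR 0.23). Neurl1b, a ubiquitin ligase of the Neuralized family, rose in both clones, from 5.05, 5.7 and 5.13 CPM in WT to 19.8, 21.1 and 16.1 in E3 and 8.83, 9.41 and 7.29 in E5. Its log2 fold change was 1.84 ± 0.14 in E3 (edgeR FDR 1.92e-05) and 0.68 ± 0.14 in E5 (FDR 0.00715), and the clones differed by -1.16 ± 0.14 (FDR 0.000174).

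Rbpj, the DNA-binding subunit through which Notch acts, was abundant, at 777, 782 and 786 CPM in WT cells, 661, 617 and 400 in E3 and 634, 687 and 716 in E5. Every KO library lay under every WT library, and E3 replicate 3 was the lowest. Rbpj fell by 0.48 ± 0.16 in E3 (edgeR FDR 0.0459), a call lost in 6 of the 9 fits without 1 library (FDR 0.00752 to 0.116), and by 0.29 without E3 replicate 3 (FDR 0.00752). It had -0.20 ± 0.16 in E5 (FDR 0.429, and 0.0315 without E3 replicate 3). Of the 8 nuclear activators, the only other that passed was the Mastermind coactivator Maml2, at -0.75 in E3 and -0.68 in E5 (edgeR FDR 0.0109 and 0.0247). That is 25% of the 8 in E3 and 12.5% in E5, against 30.5% and 20.6% of all tested genes. Of the 7 nuclear repressors, Ctbp1 passed between the clones, at -0.27 (edgeR FDR 0.0432), which is 14.3% of the 7 against 31.9% of all tested genes.

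Of 5 other target genes tested, Nrarp, Hes7, Myc and Efnb2 passed between the clones (80% of only 5 genes, against 31.9% of all tested genes). Nrarp, a target that also feeds back on Notch by limiting its nuclear complex, had 0.721, 0.61 and 0.844 CPM in WT cells, 1.44, 1.63 and 2.15 in E3 and 0.129, 0.0868 and 0.277 in E5. The lines did not overlap, with E3 highest and E5 lowest. Nrarp was a DEG in all 3 comparisons, at 1.26 ± 0.29 in E3 (edgeR FDR 0.00916), -2.09 ± 0.38 in E5 (FDR 0.00323) and -3.34 ± 0.36 between the clones (FDR 7.38e-05), and each left-out library kept these calls (FDR at most 0.048, 0.0191 and 0.000773). It shares 7.05% of its exonic bases with Gm13387 on the opposite strand, which had 8, 12 and 3 counts in WT, 2, 1 and 0 in E3 and 16, 12 and 12 in E5 (edgeR FDR 0.0215 in E3, 0.3 in E5 and 0.00368 between the clones). With Gm38287, also on the opposite strand, it shares 79.4%, and that gene had 0 counts in every library.

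Hes7, a Hes gene of the segmentation clock that shares 20.7% of its exonic bases with 9130213A22Rik on the opposite strand, had 0.962, 1.01 and 0.697 CPM in WT cells, 1.08, 0.74 and 1.36 in E3 and 0.388, 0.672 and 0.314 in E5. E5 was below every other library, at log2 fold changes of -0.97 ± 0.34 against WT (edgeR FDR 0.0707, and 0.0272 to 0.213 without 1 library) and -1.22 ± 0.34 against E3 (FDR 0.0194, and 0.0103 to 0.0798 without 1 library, lost without E5 replicate 1 or 3). Myc, a growth regulator and Notch target in some tumors, had 540, 638 and 646 CPM in WT cells, 230, 182 and 239 in E3 and 658, 721 and 671 in E5. It fell by 1.48 ± 0.13 in E3 (edgeR FDR 3.01e-05) and had 0.17 ± 0.12 in E5 (FDR 0.383). Efnb2, an ephrin ligand, had a mean of 33.3 CPM in WT, 60.3 in E3 and 29.3 in E5, at 0.86 ± 0.15 in E3 (edgeR FDR 0.00178) and -1.04 ± 0.15 between the clones (FDR 0.000496). Hes6, which counteracts Hes1, rose from 2.2, 2.17 and 2.26 CPM in WT to 4.44, 3.28 and 5.61 in E3 (log2 fold change 1.00 ± 0.19, edgeR FDR 0.00331) and had 2.76, 2.47 and 2.92 in E5 (0.30, FDR 0.329). Hes5 and Hey2, like Heyl, had 0 counts in every library.

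Genes were ranked by how close their pair of log2 fold changes, in E3 and in E5 against WT, lay to that of a Notch DEG, among 10393 named genes with an average log2 CPM above 1 over the 9 libraries. For Notch3 the nearest were Ephx1 (distance 0.0985, at 1.37 and 0.98), Camk2b (0.137, at 1.59 and 0.99) and Grb14 (0.137, at 1.49 and 1.07). For Jag2 they were Mctp2 (0.0269, at -0.094 and 1.32), Ackr3 (0.0967, at -0.027 and 1.29) and Zfp521 (0.143, at -0.11 and 1.46).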

How the data were processed

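RNA-seq libraries of WT LLC cells and of CD47 KO clones E3 and E5 were analysed, 3 of each. Per the study's methods and the submitters' processing notes, reads were checked with FastQC, trimmed with Trimmomatic and aligned to GRCm39 with STAR. The authors deposited raw read counts per gene, neither normalized nor pooled, and versions, counter and strand setting are not given in the sources used here.

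From the deposited counts, genes were filtered with filterByExpr (minimum count 10, total 15), scaled by TMM and fitted with edgeR 4.0.16 (R 4.3.3) by the quasi-likelihood test, with the 3 lines in 1 model and Benjamini-Hochberg adjustment over 14593 genes. A DEG had an FDR below 0.05 and a log2 fold change beyond 1 in either direction. The SE was taken as the size of the log2 fold change divided by √F. Counts of 44257404 to 55095219 per library set the precision, and limits for a count of 0 (3 counts) cover counting error only. Merged exons of GENCODE vM39 gave RPKM. The procedure was run on simulated counts that lacked the length-dependent shift of E3 replicate 3, so this run cannot show how the test behaves with that shift. Alternatives were DESeq2 1.42.0, other scalings and filters, only the lines compared, robust fitting, a replicate block and each library left out. Named by rule were the 10 Notch genes, Cd47, Rbpj, other pathway genes that were DEGs in at least 1 comparison, and the 3 genes nearest to each Notch gene that was a DEG against WT. The genes and lists were chosen with earlier results of these data known.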

Additional observations from a re-analysis of the deposited data

Results flagged for a closer look

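Among the Notch genes and the pathway genes named by rule, the following differed between the KO clones by edgeR's quasi-likelihood test of E5 against E3 (FDR under 0.05, Benjamini-Hochberg adjustment over all tested genes), so that their effects against the same WT libraries were not the same in both clones. Among the receptors these were Notch1, with a log2 fold change of -0.75, and Notch2, at 1.00. Both calls held without replicate 3 of clone E3. As given above, that of Notch1 was lost without any other 1 library, and that of Notch2 without any 1 of the E5 libraries. Among the ligands, Jag1 differed by 1.47, Jag2 by 1.44, Dll1 by 1.24 and Dner by 2.42. Of the gamma-secretase subunits, Psen2 differed by 0.88 and Aph1b by -0.91. Of the ubiquitin ligases named by that rule, Mib2 differed by 0.95 and Neurl1b by -1.16. Among targets and Hes genes, Hes7 differed by -1.22, Nrarp by -3.34, Myc by 1.65, Efnb2 by -1.04 and Hes6 by -0.71. The calls of Hes7 and Hes6 also depend on single libraries: that of Hes7 was lost without E5 replicate 1 or 3, and that of Hes6 without E5 replicate 2 (FDR 0.0716, in a range of 0.00265 to 0.0716) and with only the E3 and E5 lines in the fit (FDR 0.0544).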

How the results depend on the processing

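Of the log2 fold changes of the named genes under each alternative, 922 kept their direction and side of the threshold, 60 lost the call, 18 gained it and 7 changed sign, and of the counts 276 stayed within 1.5 times and 30 moved further. With at least 10 counts in every library, DEGs numbered 828 in E3, 571 in E5 and 836 between the clones (1433, 1198 and 1606 as reported), and DEGs among the other pathway genes in E5 0 in place of 2. Fewer genes were tested under that rule, among them 46 of the 49 pathway genes. Dlk2 and Nrarp, the 2 DEGs in E5, were removed by it and so were not tested again. With only the lines compared, Notch genes at an FDR under 0.05 numbered 2 in E3, 6 in E5 and 3 between the clones (4, 3 and 5 as reported), and in E5 all such genes numbered 6596 in place of 3012 and pathway genes 26 in place of 9. In E3 and between the clones, the numbers of all such genes stayed within 1.5 times of those reported. Leaving out each library in turn gave DEGs of 1262 to 1583, 1040 to 1351 and 1488 to 1866 in the 3 comparisons, and genes at an FDR under 0.05 of 2875 to 6423, 1767 to 6246 and 3235 to 6555. Notch DEGs were then 0 to 2, 1 and 3 to 4, and Notch genes at an FDR under 0.05 were 2 to 4, 2 to 6 and 3 to 6. Pathway DEGs were 6 to 9, 2 to 3 and 5 to 8, and pathway genes at an FDR under 0.05 were 12 to 27, 4 to 23 and 13 to 24. Without E3 replicate 3, there were 6246 genes, 6 Notch genes and 23 pathway genes at that FDR in E5, and 2 Notch DEGs in E3, while without WT replicate 2 or E3 replicate 1 there was no Notch DEG in E3. Fits with 1 library left out assume that the remaining ones vary like the other lines. Of values near 0, Notch4 in E5 was -0.029 with the replicate block and -0.38 to 0.29 with 1 library left out (-0.068, -0.024 and -0.38 without WT replicates 2 and 3 and E5 replicate 3), Jag2 in E3 -0.24 to 0.097 (0.097 without WT replicate 1), and Hes1 in E3 -0.39 to 0.023 (0.023 and 0.0026 without E3 replicates 1 and 2). Hes1 in E5 passed with DESeq2 (0.0404), without a filter (0.0453) and with 2 lines (0.00666). With 2 lines Notch2 and Notch3 in E5 also passed (2.17e-05 and 0.0168). Notch1 and Jag1 in E3 then missed (0.0546 and 0.0525), as did Notch1 and Notch2 between the clones (0.0808 and 0.0614). Dll1 in E5 missed under upper-quartile scaling (0.0543), without a filter (0.0872), with at least 10 counts everywhere (0.0509) and with the block (0.0923). The cause was not tested. Replicate numbers did not pair the libraries (correlations of deviations -0.254 to 0.0993), and as a block they cost the calls of Jag1, Dner and Rbpj in E3 (0.0514, 0.0743 and 0.0663). Depth limits Notch3, Notch4, Dlk2, Dner and Nrarp, which have few counts.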

Other observations

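Several pathway genes were too scarce for the test, and their counts are given here as they stand. Dll4, an endothelial Notch ligand, had 0, 13 and 2 counts in the WT libraries, 3, 4 and 6 in clone E3 and 1 in each library of clone E5. Lfng, a glycosyltransferase that tunes how receptors answer Delta and Jagged ligands, had 16, 7 and 7 counts in WT, 2, 6 and 4 in E3 and 4, 4 and 7 in E5. Lnx1, a ubiquitin ligase that acts on Numb, had 2, 9 and 3 counts in WT, 3, 0 and 3 in E3 and 0 in each library of E5. These genes were chosen after their values were seen, and no test was applied.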
